A study of Mus musculus with 7 samples.

Results

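The acrosome, fertilization and sperm motility genes examined here were the coding genes whose Gene Ontology terms name the acrosome, fertilization, the zona pellucida, sperm-egg interaction, capacitation, sperm motility or the flagellated sperm. A term of the biological process or the cellular component column was sufficient, and genes that also carried a meiosis or DNA repair term were left out. With 1 gene counted for each first symbol, 122 genes on 125 rows were found among 3997 coding genes of the deposited microarray table.

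Seminiferous tubules of 7 mice, 3 wild-type and 4 *Ctcf*-cKO, aged 12 to 15 weeks and described in the methods as C56BL/6J, gave 150 ng of total RNA each for a mouse transcriptome array. The labels name testes as the source. *Ctcf*-cKO mice carried the Stra8-iCre transgene together with an excised and a floxed copy of *Ctcf* (Ctcf f/Δ). Cre is made from the Stra8 promoter by spermatogonia and by spermatocytes entering meiosis. CTCF is a zinc finger protein that binds DNA and organises chromatin into loops. Immunostaining in the study still found CTCF in Sertoli cells, Leydig cells and spermatogonia of *Ctcf*-cKO testes, but not in spermatocytes or spermatids. The wild-type littermates were Ctcf f/f, wt/f or wt/wt, and the labels do not say which animal had which genotype. For each genotype the table gives the authors' averaged log2 signal. It lists only transcript clusters that passed the authors' filter on a fold of 2 and a p of 0.05. It has 0 columns of single arrays, so that no spread between mice can be given for any value, no test between genotypes could be made, and precision is limited by how few arrays there were. Differences are given as the *Ctcf*-cKO average minus the wild-type average on the log2 scale, where -1 is a fold of 2. *Ctcf* has 0 rows in the table, so the targeted gene could not be checked.

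The acrosome is a vesicle that forms over the nucleus of the round spermatid from Golgi membranes and holds the enzymes and binding proteins with which the sperm passes the egg's coat, the zona pellucida. In the flagellum, an axoneme of microtubules and dynein motors is wrapped in dense fibres and a fibrous sheath, and calcium entering through the CatSper channel gives the vigorous beat of capacitated sperm. Most genes of both structures are transcribed in late spermatocytes and round spermatids, before chromatin compaction stops transcription.

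Of the 122 genes, 110 (90.2%) were lower in *Ctcf*-cKO than in wild-type and 12 were higher. Of all 3997 coding genes listed, 61.3% were lower and 38.7% were higher. In these testes fewer cells of a type and less RNA per cell cannot be told apart. The 110 lower genes had a median difference of -1.32 with a range of -1.97 to -1.00, beside a median of -1.29 for all 2450 lower coding genes, so that the size of their differences was close to that of the whole list. Past a fold of 3 on the lower side there were 17 genes, which is 15.5% of the 110, beside 13.1% of all lower coding genes and 8.03% of all coding genes. The 12 higher genes had a median difference of 1.75 and lay between 1.10 and 2.28, whereas the 1547 higher coding genes had a median of 1.33. On the higher side 7 of the 12 were past a fold of 3, beside 26.7% of all higher coding genes and 10.3% of all coding genes. Among 114 spermatogenesis genes without any of these terms, 82.5% were lower, with a median of -1.31, and among 78 meiosis and DNA repair genes 88.5% were lower, with a median of -1.22. Every gene listed had already passed the 2-fold limit, and shares were set side by side without a test.

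**Figure D1:**
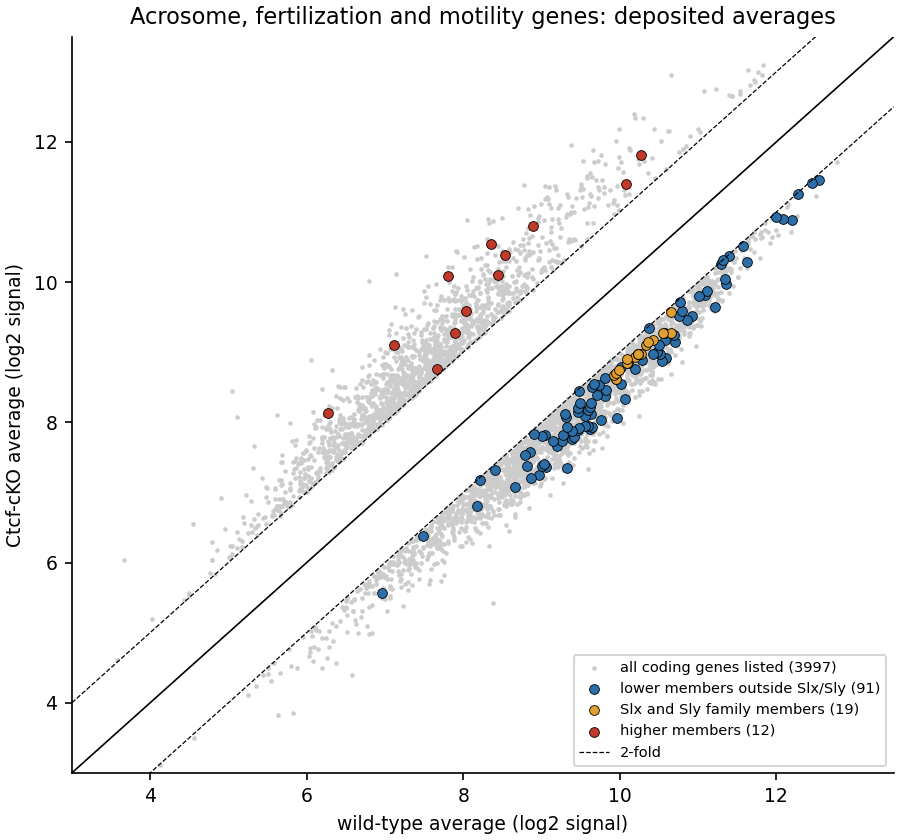
Deposited log2 signal averages of wild-type (x axis) and *Ctcf*-cKO (y axis), 1 point per gene. Grey points are the 3997 coding genes listed, blue and orange points the 110 lower genes of the acrosome, fertilization and motility terms (orange for the 19 of the Slx and Sly families), red points the 12 higher ones, and dashed lines mark a fold of 2; the band between them is empty because the table lists no smaller difference.

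Most markers of somatic testis cells with a row were higher, and the markers of spermatocytes and spermatids with a row were lower. A marker has a row only if it passed the limits of the list. The paper reports *Sycp3* and *Stra8* as not affected and *Prm1* and *Prm2* as not down-regulated, and none of these has a row among those analysed. Of 8 Leydig cell markers 7 have a row, and all 7 were higher by 1.39 to 2.97, among them *Lhcgr*, the luteinizing hormone receptor (7.14 in wild-type testes and 10.11 in *Ctcf*-cKO testes). All 6 Sertoli cell markers with a row, of 9 listed, were higher by 1.11 to 2.28, and all 5 macrophage markers with a row, of 8 listed, by 1.09 to 2.33. Of 6 peritubular myoid markers 4 have a row; *Acta2*, *Myh11* and *Tagln* were higher by 1.06 to 1.42 and *Actg2* was lower (-1.08). The endothelial markers *Cdh5* and *Kdr*, the 2 of 6 with a row, were higher by 1.13 and 1.12. Of the 9 markers of primary spermatocytes, 6 have a row and were lower by differences of -1.57 to -1.04. Round spermatid markers were lower in 7 of 7 rows (-1.72 to -1.18), but 6 of these 7 are themselves acrosome or motility genes counted above. Of 11 elongating spermatid markers only *Prm3* (-1.04) and *Akap4* (-1.02) have a row, and both are counted above as well. The part that cell numbers had in the lower and higher genes was not tested.

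By their terms, 65 genes belonged to the acrosome, 53 to fertilization, zona pellucida and sperm-egg interaction, 10 to capacitation and 26 to sperm motility or the flagellated sperm, and 28 genes stood in more than 1 of these groups. Lower in *Ctcf*-cKO were 58 of the 65 acrosome genes, with a median difference of -1.40. The fertilization group had 49 lower genes of 53 and a median of -1.27. Of these 49, 19 are near-identical genes of the Slx and Sly families, and without them 30 of 34 genes (88.2%) were lower, with a median of -1.38. All 10 capacitation genes were lower (median -1.29), as were 23 of the 26 motility genes (median -1.39). The ranges of the 4 groups overlapped widely.

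**Figure D2:**
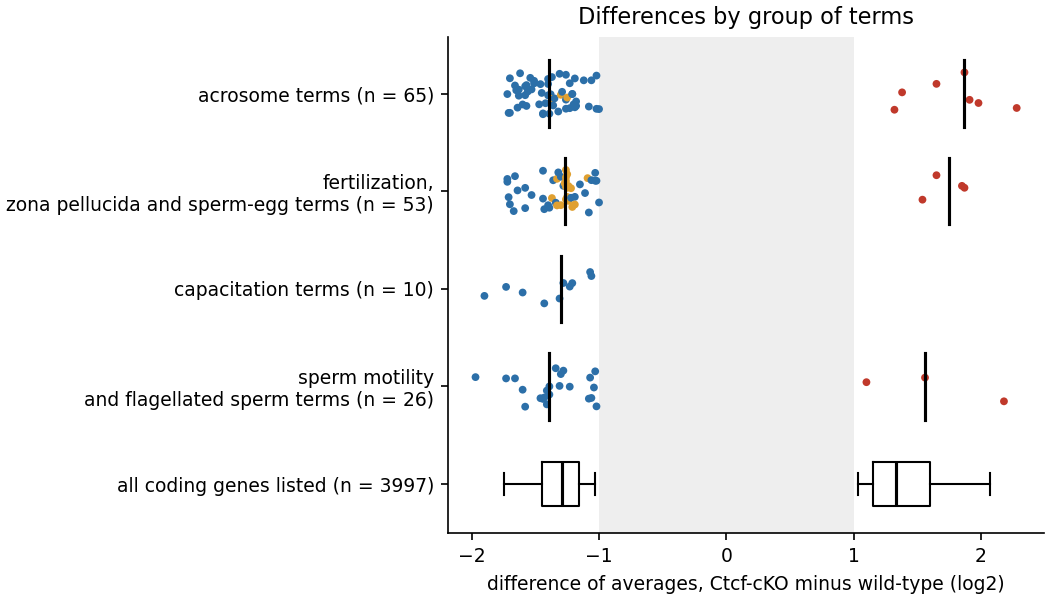
Difference of the deposited averages (*Ctcf*-cKO minus wild-type, log2) of each gene in the 4 groups of terms, with blue for lower, orange for lower Slx and Sly family and red for higher genes; vertical offsets are for display, and black lines are medians of the lower and of the higher genes. Boxes show the quartiles and whiskers the 5th to 95th percentiles of all 2450 lower and 1547 higher coding genes, and the grey band holds no listed gene; 58 of the 65 acrosome genes lie to its left.

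The largest difference among the lower genes was that of *Slc9c1*, the sodium/proton exchanger of the sperm flagellum (chromosome 16, 45535266 to 45607001, plus strand). The signal was 9.32 on average in wild-type testes and 7.35 in *Ctcf*-cKO testes, a difference of -1.97 or 3.92-fold. *Catsperb* and *Catsperd*, auxiliary subunits of the CatSper calcium channel, came next. *Catsperb* (chromosome 12, 101404673 to 101626009) averaged 9.96 in wild-type testes and 8.06 in *Ctcf*-cKO testes (-1.90), and *Catsperd* (chromosome 17, 56628143 to 56664456) averaged 10.06 and 8.33 (-1.73). All 6 CatSper genes with these terms were lower, with a median difference of -1.53, and 3 of them passed a fold of 3. The pore-forming subunits had differences of -1.46 for *Catsper1*, -1.43 for *Catsper2*, -1.60 for *Catsper3* and -1.31 for *Catsper4*. *Atp1a4*, the sodium pump of sperm, averaged 11.62 in wild-type testes and 10.28 in *Ctcf*-cKO testes (-1.34). *Slc22a16*, a carnitine transporter, averaged 10.54 and 8.88 (-1.66). A list of 20 sperm channel and transporter genes, most of them without these terms in the table, had 17 genes with a row, and all 17 were lower (-1.97 to -1.10). This list and the other lists by role below were chosen with earlier results of these data known. Their counts therefore describe the listed genes and are no independent support for a direction. Among those outside the terms were *Kcnu1*, the sperm potassium channel (9.86 and 8.14), and its partner *Lrrc52* (9.47 and 8.07).

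Of the enzymes and binding proteins with which sperm pass the cumulus and the zona pellucida, the list had 19 genes, of which 14 have a row, 13 lower and 1 higher. The hyaluronidases *Hyal5* and *Spam1*, which digest the cumulus matrix, were both past a fold of 3. *Hyal5* (chromosome 6, 24857997 to 24891958) averaged 9.76 in wild-type testes and 8.04 in *Ctcf*-cKO testes (-1.72), and *Spam1* (chromosome 6, 24791188 to 24801048) averaged 9.01 and 7.37 (-1.64). *Zp3r*, a zona-binding protein of the acrosomal matrix, averaged 9.64 in wild-type testes and 7.94 in *Ctcf*-cKO testes (-1.70). *Pkdrej*, a sperm surface protein of the polycystin family, averaged 8.86 and 7.20 (-1.66), and *Prss37*, a serine protease family member required for fertilization, averaged 10.42 and 8.98 (-1.44). Smaller differences were those of *Tex101*, a surface protein of germ cells (-1.23), *Arsa*, arylsulfatase A (-1.19), *Acr*, the protease acrosin (10.77 and 9.71, -1.06), and *Zan*, zonadhesin (8.21 and 7.18, -1.03). The higher gene of this list was *B4galt1*, a galactosyltransferase that is made in many tissues and also binds zona sugars on sperm (8.45 in wild-type testes and 10.10 in *Ctcf*-cKO testes, 1.65). *Glipr1l1*, a sperm surface protein of the CAP family, averaged 9.62 and 7.91 (-1.71), and *Capn11*, a calpain protease of the testis, 9.06 and 7.36 (-1.70).

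Genes that build and shape the acrosome made a list of 38, of which 28 have a row, and all 28 were lower (-1.72 to -1.02). Of these, 13 carried the terms. The largest differences among the 13 were those of *Capza3*, the actin capping subunit of sperm (9.60 in wild-type testes and 7.95 in *Ctcf*-cKO testes, -1.65), *Eqtn*, equatorin of the acrosomal membrane (9.39 and 7.76, -1.63), and *Spata16*, a Golgi protein of spermatids (10.71 and 9.14, -1.57). *Zpbp* and *Zpbp2*, acrosomal matrix proteins that keep the head in shape, differed by -1.44 and -1.40. The acrosomal vesicle protein *Acrv1* differed by -1.18, and the acrosome-associated proteins *Spaca1*, *Spaca3*, *Spaca4* and *Spaca7* by -1.26, -1.08, -1.21 and -1.40. *Tmem190*, a membrane protein of the acrosome, differed by -1.32, *Cylc1* of the perinuclear theca by -1.39, and *Tbpl1*, a TBP-like transcription factor of spermatids, by -1.02. Those with a row thus included genes of the matrix, the membrane and the underlying theca. The other 10 listed genes, *Acrbp* and *Fabp9* among them, have no row and no direction here.

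Fusion and adhesion proteins of the sperm head had 14 genes with a row of 18 listed, all lower (-1.85 to -1.01), but only 4 carried the terms. *Adam2*, fertilin beta, averaged 11.21 in wild-type testes and 9.64 in *Ctcf*-cKO testes (-1.57), and *Adam3*, cyritestin, averaged 12.20 and 10.88 (-1.32). *Spesp1*, a protein of the equatorial segment, averaged 9.39 and 7.88 (-1.51), and *Cd46*, a complement regulator of the inner acrosomal membrane, 8.17 and 6.81 (-1.36). *Izumo1* and *Spaca6*, which act in the fusion of sperm and egg, have no row among those analysed here, whereas *Izumo2*, *Izumo3* and *Izumo4*, outside the terms, differed by -1.50, -1.75 and -1.07. *Plcz1*, the phospholipase that starts calcium oscillations in the fertilized egg (chromosome 6, 139989676 to 140041457), averaged 10.59 in wild-type testes and 8.92 in *Ctcf*-cKO testes (-1.67). *Plcd4*, a phospholipase of the acrosome reaction, averaged 9.26 and 7.73 (-1.53). *Plcz1*, *Plcd4* and *Tmem225* (-1.73) were the 3 of 12 genes with a row on the list for egg activation and acrosome reaction signalling, and 9 have none. Of 9 chaperones and processing enzymes of sperm surface proteins, *Calr3* (-1.41), *Pdilt* (-1.41) and *Clgn* (-1.08) have a row, and none of the 3 is counted among the 122 genes.

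In the flagellum, *Spef2*, a protein of the central apparatus needed for tail assembly, averaged 8.97 in wild-type testes and 7.25 in *Ctcf*-cKO testes (-1.72). *Spag6*, another central apparatus protein, averaged 10.92 and 9.51 (-1.41). The tektins, filament proteins of axonemal microtubules, differed by -1.23 for *Tekt2*, -1.58 for *Tekt3* and -1.39 for *Tekt4*, and *Lrrc6*, an assembly factor of dynein arms, by -1.39. Of the 48 axoneme and flagellum genes listed, 40 have a row and all 40 were lower, with a median difference of -1.39; 7 of the 40 carried the terms and the other 33 did not. *Dnah12*, an axonemal dynein outside the terms, had the largest difference of the list (10.24 and 8.09, -2.15).

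Signalling and energy supply of the beat gave 16 genes with a row of 26, 15 of them lower. The kinase anchoring proteins of the fibrous sheath, *Akap3* and *Akap4*, averaged 11.34 and 11.39 in wild-type testes, and 10.05 and 10.37 in those of *Ctcf*-cKO mice. Their partners *Ropn1* and *Ropn1l* differed by -1.28 and -1.06, and *Cabyr*, a calcium-binding protein of the same sheath, by -1.23. The testis-specific kinases differed by -1.47 for *Tssk1*, -1.38 for *Tssk2*, -1.21 for *Tssk3* and -1.18 for *Tssk4*. The glycolytic enzymes *Pgk2* and *Eno4* differed by -1.07 and -1.41. *Ldhc*, *Gapdhs* and *Smcp*, also of sperm energy supply, have no row among those analysed here. The higher gene of this list, *Pla2g4a*, a cytosolic phospholipase outside the terms, averaged 5.99 in wild-type testes and 7.61 in *Ctcf*-cKO testes (1.62). Over all role lists, each gene counted once, 134 of 189 genes have a row, 132 were lower and 2 higher, and 54 of the 134 carried the terms. Of all coding genes listed 61.3% were lower, but the role lists were not chosen blind to these data, so the 2 shares cannot be compared.

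**Figure D3:**
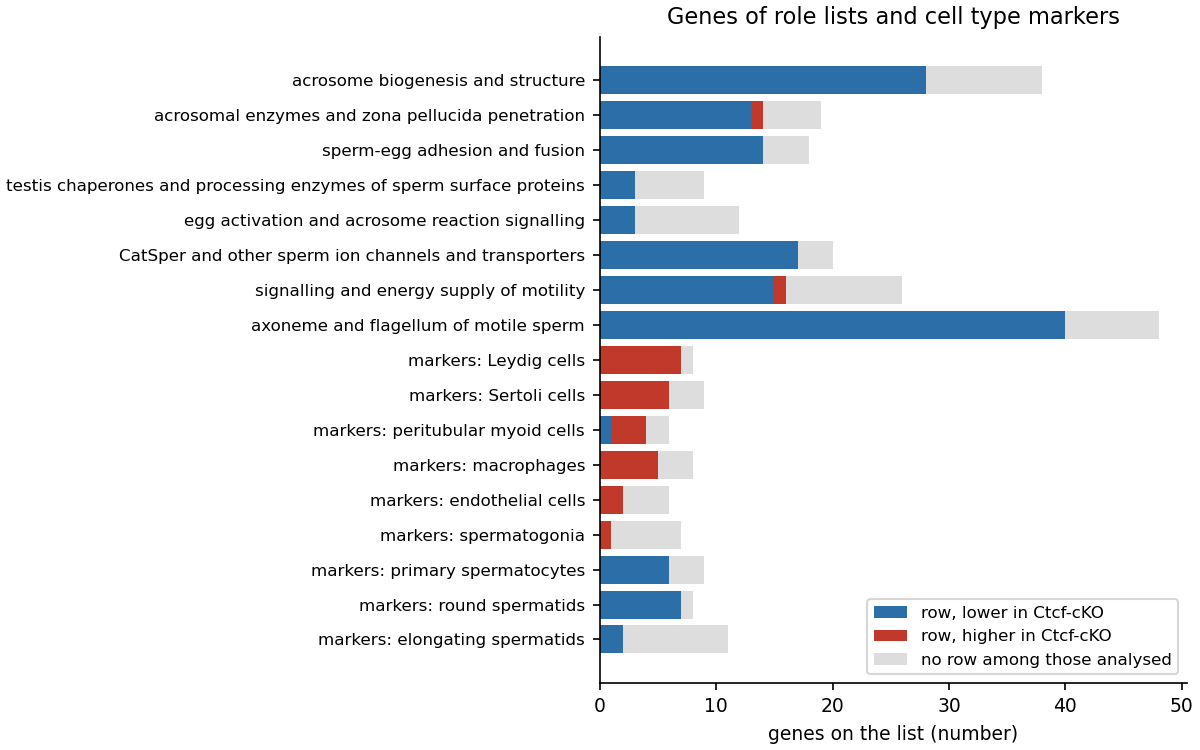
Number of genes on each role list and each cell type marker list (bars, x axis) that have a row and were lower (blue) or higher (red) in *Ctcf*-cKO, or have no row among those analysed (grey). The role lists hold 132 lower and 2 higher genes counted once, whereas the Leydig, Sertoli, macrophage and endothelial markers with a row were all higher. Lists share some genes and were chosen with earlier results of these data known.

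At the limits of the list stood *Spink2*, an inhibitor of acrosomal proteases, with averages of 11.32 and 10.32 for wild-type and *Ctcf*-cKO (-1.00), and, on the higher side, *Inpp5b*, an inositol phosphatase, with 7.66 and 8.76 (1.10). Within 0.1 of the 2-fold limit lay 15 of the 110 lower genes, *Acr*, *Zan*, *Akap4* and *Prm3* among them. The last gene past a fold of 3 was *Catsper3* (-1.60), and *Tekt3* and *Glipr1l3* (both -1.58) fell just short of it. Genes that missed the limit on fold or on p were not analysed here.

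The 12 higher genes were led by *Kit*, the stem cell factor receptor of spermatogonia and of Leydig cells, which also has an acrosome term. It averaged 7.81 in wild-type testes and 10.09 in *Ctcf*-cKO testes, a difference of 2.28 or 4.86-fold (chromosome 5, 75574916 to 75656722). *Anxa5*, a phospholipid-binding annexin, averaged 8.36 in wild-type testes and 10.54 in *Ctcf*-cKO testes (2.18). *Ctsh*, a lysosomal cysteine protease, averaged 7.12 and 9.10 (1.98), and *Eppin*, a protease inhibitor of the sperm surface, 8.89 and 10.80 (1.91). A further 7 are given, all but *B4galt1* and *Inpp5b* picked after their values had been seen, because so few genes were higher. They were *Mfge8*, a secreted glycoprotein that binds the zona (1.85), *B4galt1* (1.65), *Pltp*, a phospholipid transfer protein (1.56), *Tsx*, an X-linked gene of the testis (1.54), *Ctnna1*, alpha catenin (1.38), *Serpina5*, a serine protease inhibitor (1.32), and *Inpp5b* (1.10). None of the 12 carried a capacitation term, which only 10 of all 122 genes had. Beside these 12, the 7 Leydig cell markers were higher by 1.39 to 2.97 and the 6 Sertoli cell markers by 1.11 to 2.28. All higher coding genes lay between 1.0 and 3.4, so an overlap of these ranges says nothing of cell types. The part of Leydig and Sertoli cells in the higher genes was not tested. *Kit* is itself on the spermatogonia list, and the other 6 spermatogonia markers have no row among those analysed here.

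**Figure D4:**
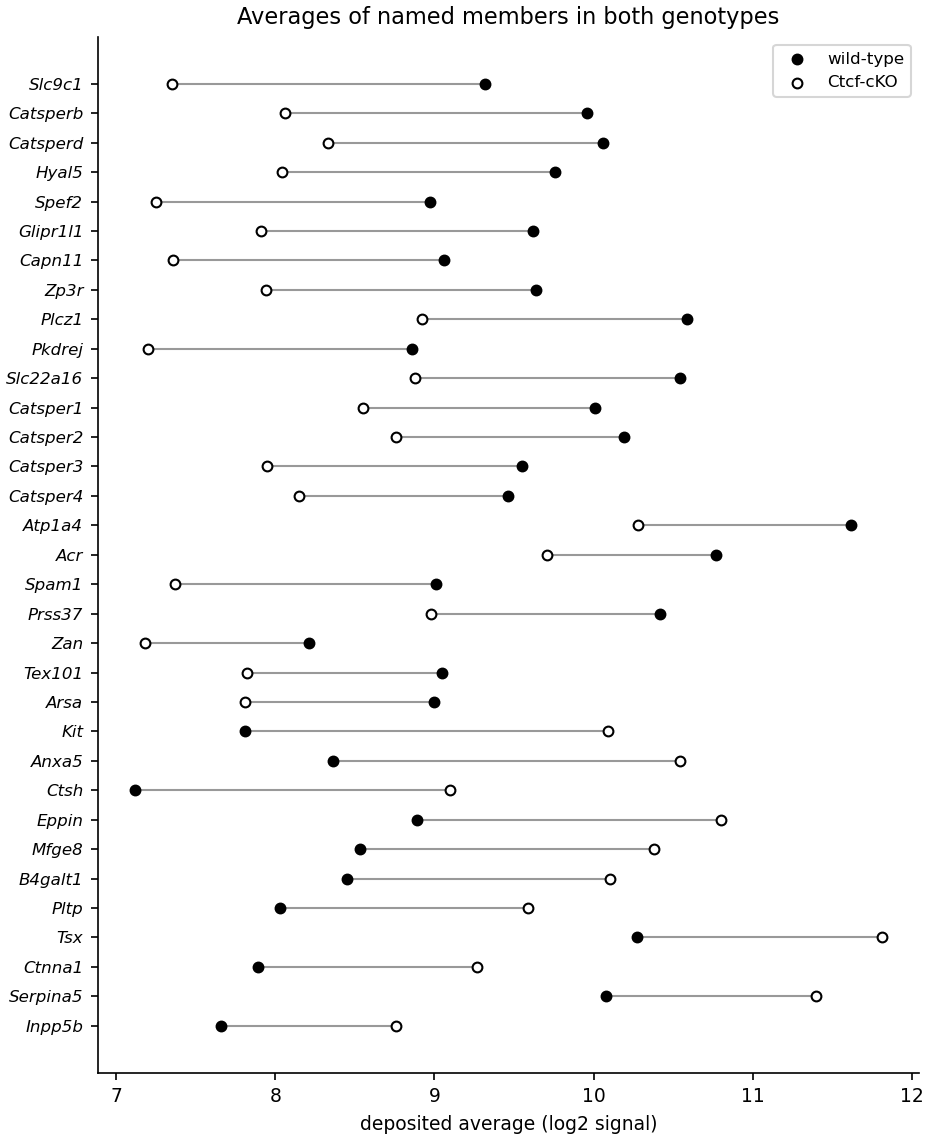
Deposited average log2 signal in wild-type (filled) and *Ctcf*-cKO (open) of named genes, with 1 gene per line (y axis). From the top, these are the 11 lower genes with the largest differences, the remaining lower genes of the channel and acrosomal enzyme lists, and 11 of the 12 higher genes, from *Kit* to *Inpp5b*; signal levels are comparable within a gene, not between genes.

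The tissue annotation in the table, which names the body sites where transcripts of a gene had been collected, was not used to choose the genes and differed between the lower and the higher ones. The 107 lower genes with an entry had a median of 2 body sites, and 41 of them (38.3%) had testis as the only one. All lower coding genes had a median of 3 sites and a testis-only share of 32.1%. Outside the Slx and Sly families, 30 of 90 lower genes with an entry (33.3%) had testis alone, close to that share, and their median was also 2. The 12 higher genes had a median of 27.5 sites, and only *Eppin* had testis alone. *Tsx* and *Serpina5* had 2 sites each, and the other 9 higher genes had between 22 and 38. All higher coding genes had a median of 23 sites, and 0.68% were listed in testis alone.

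**Figure D5:**
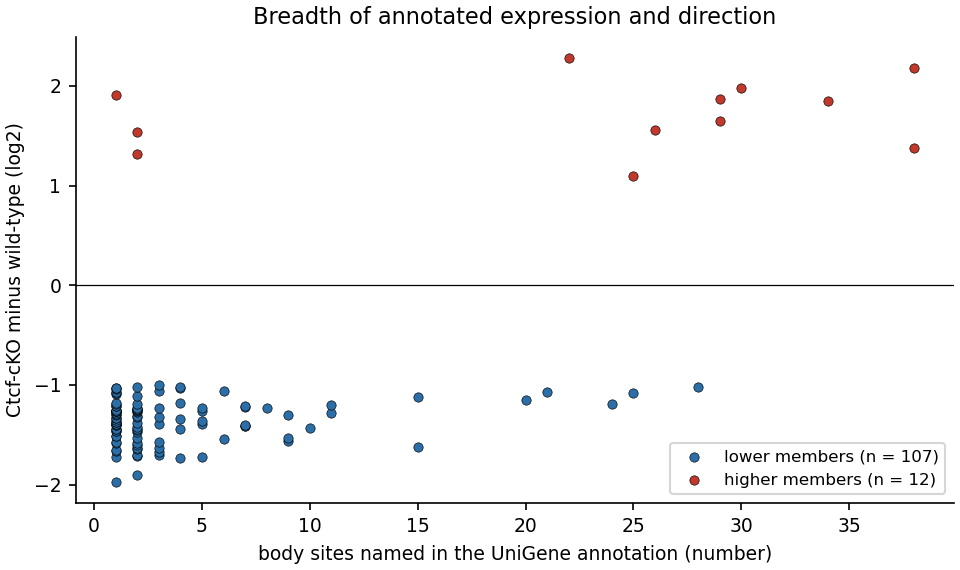
Number of body sites in the table's tissue annotation (x axis) and difference of the deposited averages (*Ctcf*-cKO minus wild-type, log2, y axis) for the 107 lower (blue) and 12 higher (red) genes with an entry, 1 point per gene. Lower genes have a median of 2 sites and higher genes a median of 27.5; *Eppin*, *Serpina5* and *Tsx* are the higher genes at 1 or 2 sites.

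The Slx and Sly families, multicopy genes of the X and Y chromosomes that are expressed in spermatids, made up 19 of the 110 lower genes through the term single fertilization. They lay on 22 rows, 18 on the Y and 4 on the X chromosome, whose sequences are so alike that the probes of a row can read several copies, and the count of 19 is therefore uncertain. The 22 rows held 17 distinct pairs of averages, and 5 rows shared the same pair. All were lower by differences of -1.37 to -1.09. *Sly* (chromosome Y, 57187206 to 57213358) averaged 10.33 in wild-type testes and 9.11 in *Ctcf*-cKO testes (-1.22), and *Slx* (chromosome X, 26522656 to 26545565) 10.66 and 9.57 (-1.09). Without the families, 91 of 103 genes (88.3%) were lower, and the lower median was -1.39. This alternative was added after seeing the data.

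Of the 103 genes outside the Slx and Sly families, 6 pairs lay within 200 kb of each other, and both genes of each pair were lower. Of these 103 genes 91 (88.3%) were lower, so that most pairs of them, near or far, are lower together. *Plcz1* and *Capza3* stood 0.068 kb apart on opposite strands, with differences of -1.67 and -1.65. *Tssk1* and *Tssk2* were 2.98 kb apart, the proteases *Prss39* and *Prss40* 40.9 kb, and *Spam1* and *Hyal5* 56.9 kb. *Glipr1l1* and *Glipr1l3* were 63.3 kb apart, and *Arsa* and *Acr* 90.9 kb.

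Promoter sequences of RefSeq (GRCm38.p6, 250 bases before to 50 after a start site) were matched to 99 of the 122 genes. Several Slx and Sly genes were matched to the promoter of another copy. The promoters searched were therefore those of 84 different RefSeq genes on the lower side and 9 on the higher side. They were searched on both strands for the cAMP response element TGACGTCA, to which the spermatid activator CREM binds, for its shorter form TGACGT, which every full element contains, and for a core of the CTCF motif. The short form occurred in 4 of 101 promoters of the lower genes (3.96%), beside 7.51% of all 32851 promoters. The full element occurred in 1 (0.99%), beside 1.79% of all. The CTCF core was in 0 of the 101, beside 0.0365% of all promoters, and 0 of 10 promoters of the higher genes held any of the 3 motifs. The core is so rare among all promoters that its absence from 101 says nothing of CTCF at these genes. These are matches of letters in a short window, not sites of binding. The 4 promoters are printed to show how the matches differ in form and place, with the matching letters in capitals, 5′ to 3′ on the strand of the gene. *Catsperd* was chosen by its difference. *Spag6*, *Hspa1l* (a testis heat shock protein, -1.22) and *Spesp1* were chosen after their sequences had been searched. The windows are chr17:56626797-56627096 for *Catsperd* (plus strand), chr16:16829314-16829613 for *Spag6* (minus strand), chr17:34972453-34972752 for *Hspa1l* (plus strand) and chr9:62282130-62282429 for *Spesp1* (minus strand).
Catsperd: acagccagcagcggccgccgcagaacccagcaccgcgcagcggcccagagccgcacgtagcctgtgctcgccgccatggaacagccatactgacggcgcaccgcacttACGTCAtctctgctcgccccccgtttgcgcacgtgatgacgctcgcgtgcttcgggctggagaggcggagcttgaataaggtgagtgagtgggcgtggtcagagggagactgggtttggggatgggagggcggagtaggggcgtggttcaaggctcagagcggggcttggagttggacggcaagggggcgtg
Spag6: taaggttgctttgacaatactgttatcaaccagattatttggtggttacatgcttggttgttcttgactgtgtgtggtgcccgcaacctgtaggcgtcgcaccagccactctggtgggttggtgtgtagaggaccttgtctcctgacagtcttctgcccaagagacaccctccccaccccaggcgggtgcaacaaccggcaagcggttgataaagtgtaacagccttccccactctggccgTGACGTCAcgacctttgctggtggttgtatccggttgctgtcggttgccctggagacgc
Hspa1l: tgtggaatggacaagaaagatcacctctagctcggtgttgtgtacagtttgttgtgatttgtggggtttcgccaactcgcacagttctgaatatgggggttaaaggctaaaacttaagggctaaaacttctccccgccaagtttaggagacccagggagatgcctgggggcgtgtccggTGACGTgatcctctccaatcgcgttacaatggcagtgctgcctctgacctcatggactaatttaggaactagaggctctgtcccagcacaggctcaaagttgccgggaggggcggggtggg
Spesp1: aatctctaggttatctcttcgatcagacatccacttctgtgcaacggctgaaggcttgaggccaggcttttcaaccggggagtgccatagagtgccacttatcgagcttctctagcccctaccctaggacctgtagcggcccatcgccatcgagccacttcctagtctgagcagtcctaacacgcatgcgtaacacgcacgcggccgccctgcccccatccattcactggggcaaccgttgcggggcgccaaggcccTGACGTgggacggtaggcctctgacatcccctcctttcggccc
In *Catsperd* the short form lies on the opposite strand and begins 142 bases before the start site, which is itself 1096 bases from the start of the gene's row in the table. *Spag6* has the full element, beginning 9 bases before the start site. In *Hspa1l* the short form begins 71 bases before the start site, and in *Spesp1* it begins at base 8, counted from 1 at the start site. The differences of these genes, -1.73, -1.41, -1.22 and -1.51, lay within the range of the lower genes without a match.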

How the data were processed

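Testis RNA was measured on Affymetrix mouse transcriptome arrays, 1 per mouse (3 wild-type, 4 *Ctcf*-cKO). The submitters' processing notes name Affymetrix Expression Console 1.4.1, RMA, Transcriptome Analysis Console 3.0 and mm10. The deposited table holds 7580 transcript clusters with the authors' bi-weight averages of the log2 signal per genotype, written with decimal commas, and was filtered by the authors on a fold of 2 and a p of 0.05. Its columns of fold, p and adjusted p hold the authors' own comparison and were not used. Here the difference of the 2 averages was taken for each gene, with Python 3.11.15 and pandas 2.3.3; where several rows of a gene carried the terms, the one with the largest difference was kept, and for counts over all coding genes the largest of all its rows. Coding rows were those of class Coding or Complex, and 18 without a symbol were left out. The selection of genes and the counts were tested on simulated rows.

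The genes and lists were chosen with earlier results of these data known. Genes were named by rule: the 10 lower (11 with a tie) and 5 higher genes with the largest differences, genes of the role lists, the lower and the higher gene nearest to a fold of 2, and marker genes. Of the higher genes, 1 is not reported here. Any other gene named was picked with its values in view. All 122 genes were matched to the RefSeq annotation of GRCm38.p6, and 114 overlapped the matched gene; the other 8 belong to the Slx and Sly families. *Spag6* is now called *Spag6l*. Alternatives were a fold of 3, a minimum average of 6, the class Coding alone, rows in place of genes, biological process terms alone, meiosis and DNA repair genes kept in, and the row with the smallest difference.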

Additional observations from a re-analysis of the deposited data

How the results depend on the processing

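The count of 110 lower genes was 17 with a fold of 3 in place of 2, and the count of 12 higher genes was 7. The higher count was 4 in the class Coding alone and 7 with biological process terms alone. The median difference of the lower genes, -1.32, was -1.67 with a fold of 3, -1.30 with biological process terms alone and -1.39 without the Slx and Sly families, an alternative chosen after seeing the data. A stricter fold moves the median by its construction, since it removes the smaller differences. Leaving out the Slx and Sly genes, whose median was -1.26, also removes mostly smaller differences. The cause of the other shifts was not tested. Under the remaining alternatives the lower count lay between 75 (class Coding alone) and 118 (meiosis and DNA repair genes kept in). These alternatives select from the same averages, so a direction could turn only in the 2 genes with several rows, and there it did not. An unchanged direction is therefore no check of the other genes. No paired analysis was possible because the table holds only genotype averages, and leaving out a mouse could not be done for the same reason. The differences were not re-centred, because the median of a list filtered on fold is not the centre of the array. Of the 122 genes, 0 had averages under 6 in both genotypes and 1, *Pih1d3*, in either. Since the list is limited both by fold and by p, genes without a row say nothing of equal expression.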

Other observations

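Inside 7 of the 122 genes the table lists 10 further transcript clusters of its class NonCoding, all on the strand of the gene. All 10 had the direction of that gene; whether their probes read the same transcript was not tested. *Pvrl3*, also called *Nectin3*, an adhesion protein between spermatids and Sertoli cells (-1.15), held 3 of them, with differences of -1.83, -1.42 and -1.01. The cluster inside *Zpbp* averaged 7.39 in wild-type testes and 5.82 in *Ctcf*-cKO testes (-1.57). The cluster inside *Kit* averaged 6.14 and 8.14, a difference of 2.00.

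Left out of the genes described because of their meiosis or DNA repair terms were *Clgn*, *Meiob*, *Spata22*, *Sycp2*, *Tdrd12*, *Tdrd9*, *Tdrkh* and *Tex15*. All 8 were lower, beside 88.5% of all 78 meiosis and DNA repair genes listed. They ran from -1.57 for *Meiob*, a single-strand DNA binding protein of meiotic recombination, to -1.08 for *Clgn* and *Tdrkh*. *Clgn* is a chaperone of sperm surface proteins and *Tdrkh* a piRNA pathway protein.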
